A study of Saccharomyces cerevisiae with 18 samples.

Results

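Transcript levels of 8 genes of inositol and phospholipid metabolism were compared between yeast that express *spn1 141-305*, *spn1 K192N* or wild-type Spn1. The 8 genes are *INO1*, *ITR1*, *CHO1*, *CHO2*, *OPI3*, *OPI1*, *INO2* and *INO4*. They were chosen by name, each was found by its systematic name in the R64 assembly, and they make up 8 of the 6577 genes in the deposited matrix. All 8 passed the filter on low values, and so belong to the 5954 genes that were tested. RNA was sequenced from 3 cultures of each genotype, which gives 9 libraries. Spn1 is an essential histone chaperone that travels with RNA polymerase II. In the *spn1 141-305* strain it is cut down to its conserved core, residues 141 to 305, and in the *spn1 K192N* strain it carries 1 substitution within that core.

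All the strains derive from BY4741 (MATa his3delta1 leu2delta0 met15delta0 ura3delta0), and in each of them the chromosomal *SPN1* was replaced by *LEU2* and the only Spn1 came from a plasmid with *HIS3* and the native *SPN1* promoter and terminator. The labels give spn1delta::LEU2 with plasmid pAA344 for *spn1 141-305* and with plasmid pCR312 for *spn1 K192N*, but only the parental genotype for wild-type (WT), whose plasmid-borne *SPN1* is taken from the study's methods. The cell line label differs from library to library, running from BY4741 to BY4749, while the genotype label is the same within each group. Cultures in rich glucose medium (YPD) were harvested in mid-exponential growth, and cells of the fission yeast *S. pombe* were added as a spike-in. Whether the cultures of a genotype came from separate transformants is not given in the sources used here, so the p-values measure the spread between these cultures.

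Inositol is the signal that this set of genes follows. Ino1 makes inositol phosphate from glucose 6-phosphate, the first and rate-limiting step of inositol synthesis, and the Ino2-Ino4 pair of helix-loop-helix proteins activates *INO1* and the phospholipid synthesis genes through an inositol-responsive promoter element. When inositol and choline are plentiful, the repressor Opi1 leaves the endoplasmic reticulum, enters the nucleus and turns the genes down.

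The promoter of *INO1* is shown because it holds matches to the core of that element. The core searched for is CATGTG, on both strands. In the R64 genome (RefSeq), the window from 250 bases before to 50 bases after the *INO1* start codon lies on the minus strand at chrX:135884-136183, and it holds 2 cores, in capitals, 243 to 238 and 178 to 173 bases before the start codon.
INO1: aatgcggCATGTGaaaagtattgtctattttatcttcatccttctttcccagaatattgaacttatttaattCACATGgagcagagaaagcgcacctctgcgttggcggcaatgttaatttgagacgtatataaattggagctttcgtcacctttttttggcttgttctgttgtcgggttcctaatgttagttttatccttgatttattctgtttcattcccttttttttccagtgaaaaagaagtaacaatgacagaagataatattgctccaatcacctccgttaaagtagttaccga
For the other members that have a core within 500 bases before the start codon, the core nearest to the start codon is shown with 10 bases on either side, on the strand of the gene.
ITR1, chrIV:1445673-1445698, core 221 to 216 bases before the start codon: ttccccaccgCATGTGaaaaaagctc
CHO1, chrV:208618-208643, core 159 to 154 bases before the start codon: tttgagctttCACATGgacccatcta
CHO2, chrVII:802163-802188, core 267 to 262 bases before the start codon: attcccttctCATGTGaagagttcac
OPI3, chrX:573068-573093, core 148 to 143 bases before the start codon: tgcaaacccaCACATGcatcgttggt
INO2, chrIV:699597-699622, core 144 to 139 bases before the start codon: gtacaacacaCATGTGaatttttttc
INO4, chrXV:111992-112017, core 121 to 116 bases before the start codon: acaaaatattCACATGtttttctcac
In the 300-base windows, 6 of the 8 members had a core, against 6.93% of 6001 protein-coding promoters. The longer string CATGTGA, which contains the core, was present in 5 members and in 1.98% of promoters. Within 500 bases before the start codon the core was found in 7 members and in 13.2% of 6000 promoters, which adds *CHO2* and leaves *OPI1* without a match. *CHO2* and *INO2* each have a stretch that reads CACATGTG, in which a core on one strand overlaps a core on the other. These matches describe the letters of the windows, and binding was not measured in the data used here.

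Levels were read on the rlog scale, the regularized log2 scale of DESeq2, which the authors deposited. It shrinks differences between libraries, so a fold change given here understates the change in counts. The shrinkage can differ with the level of a gene and was not measured. Sizes and ranks of fold changes therefore compare genes at unlike levels only roughly. Differences were tested with limma across the 5954 genes, and a gene was called at a Benjamini-Hochberg adjusted p below 0.05. Of all tested genes, 19.3% were called in *spn1 141-305* against WT, 18.8% lower and 0.453% higher. In *spn1 K192N* against WT 5.21% were called, 4.8% lower and 0.403% higher. The median tested gene lay at −0.09 in *spn1 141-305* and at −0.08 in *spn1 K192N* (log2 fold change against WT), a shift that the members' values contain. Replicate 1 of *spn1 K192N*, whose median gene deviated by 0.061 from the mean of all libraries, stood above the other *spn1 K192N* libraries, at −0.047 and −0.062, and WT replicate 1 stood highest of all at 0.113. *SPN1* itself, read from the plasmid, ran from 11.06 to 11.79 in *spn1 141-305*, from 12.28 to 13.62 in *spn1 K192N* and from 11.66 to 12.95 in WT. The truncated construct lacks part of the coding sequence that reads are assigned to, so its values are not directly comparable with the others. The MATa genes *STE2*, from 14.40 to 14.66, and *BAR1*, from 12.04 to 12.38, were high in all 9 libraries, while the MATalpha pheromone genes *MF(ALPHA)1* and *MF(ALPHA)2* did not exceed 3.18 and 5.34 and the pheromone receptor *STE3* did not exceed 6.75. *SAG1*, the alpha-agglutinin, lay between 9.78 and 10.01. *MFA1* and *MFA2*, which encode the short a-factor precursors, are listed at 0 in all 9 libraries, as are *MET17* and *URA3*, which the parental strain lacks.

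The members differed widely in level. By the authors' mean scaled count per kb of coding sequence, the inositol transporter gene *ITR1* stood highest at 6770, followed by *CHO1* at 3743, *OPI3* at 2435, *CHO2* at 1428, *OPI1* at 765, *INO2* at 265, *INO4* at 230 and *INO1* at 153. The median of 5729 genes was 489, and *INO1* stood above 17.1% of them, whereas *ITR1* stood above 93.6%. The mean scaled count of *INO1*, over all libraries and not per kb, was 246. No R64 gene overlaps any of the 8. *ITR1* has a paralog, *ITR2*, with which it can share reads.

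**Figure D1:**
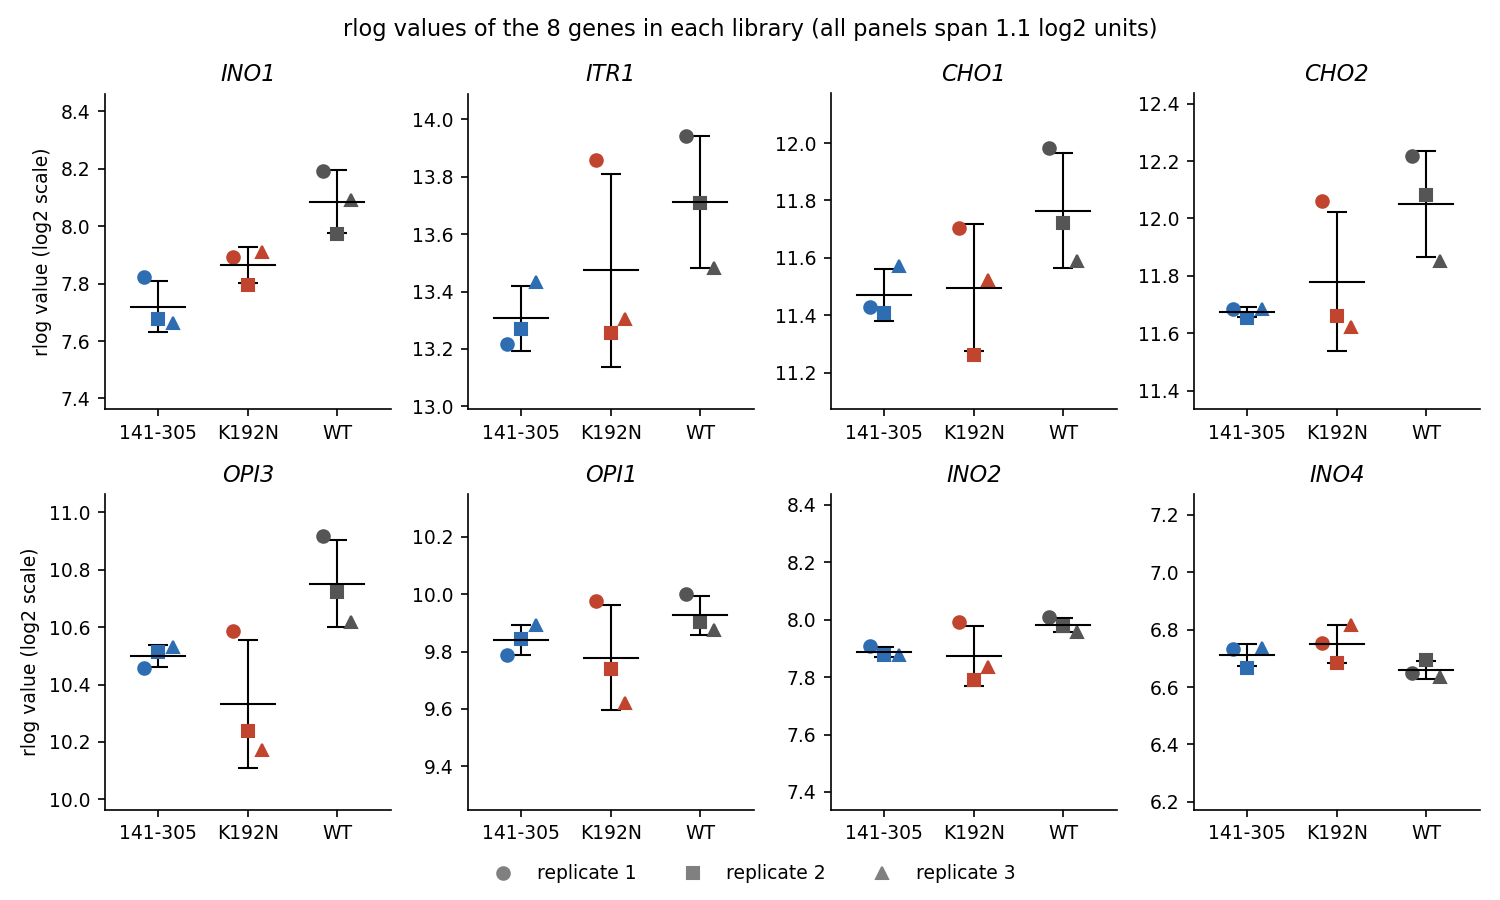
rlog values (log2 scale, y axis) of the 8 genes in the 3 libraries of each genotype (x axis: 141-305, K192N, WT). Points are libraries, with their shape giving the replicate number, and horizontal lines with bars are the mean and SD. For *INO1* the *spn1 141-305* and *spn1 K192N* libraries lie at or below 7.91 and the WT libraries at or above 7.97, and for *INO4* the genotypes overlap.

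*INO1* fell in both mutants. *INO1* (YJL153C) is a single coding exon of 1602 bp on the minus strand of chromosome X, from 134332 to 135933. Its rlog values were 7.82, 7.68 and 7.66 in *spn1 141-305*, 7.89, 7.79 and 7.91 in *spn1 K192N*, and 8.19, 7.97 and 8.09 in WT. Every mutant library thus lay below every WT library, and the mutants overlapped each other. In *spn1 141-305* *INO1* averaged 7.72 ± 0.089 (SD, n = 3), against 8.09 ± 0.11 in WT, a log2 fold change of −0.37 (standard error 0.061, adjusted p = 0.000237 from limma), or 0.776-fold. In *spn1 K192N* it averaged 7.87 ± 0.062 (SD, n = 3), and the log2 fold change against WT was −0.22 (standard error 0.061, adjusted p = 0.0307 from limma), or 0.858-fold. Only 2.57% of tested genes had a lower log2 fold change than *INO1* in *spn1 141-305*, and 6.72% did in *spn1 K192N*. In RNA from whole cultures, less *INO1* RNA in every cell and fewer cells that express it cannot be told apart.

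The call of *INO1* in *spn1 141-305* held under all 15 alternatives tried, with a log2 fold change between −0.42 and −0.26 and an adjusted p of at most 0.0128 from limma. The 15 leave out a stricter threshold, an adjusted p below 0.01, which *INO1* passed in *spn1 141-305* but not in *spn1 K192N*. In *spn1 K192N* the call was lost in 6 of the 15 alternatives. Its adjusted p was 0.185 with the libraries centred on the median gene, 0.271 without WT replicate 1, 0.155 without *spn1 K192N* replicate 2 and 0.0581 without WT replicate 3. Centring takes out the shift of the median gene, so that fit asks only for a fall beyond the shift.

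The transporter that brings inositol into the cell, *ITR1* (YDR497C, chromosome IV from 1443713 to 1445467), fell in *spn1 141-305*. Its rlog values were 13.22, 13.27 and 13.43 in *spn1 141-305*, 13.86, 13.26 and 13.31 in *spn1 K192N*, and 13.94, 13.71 and 13.48 in WT. The *spn1 141-305* libraries all lay below the WT libraries, while *spn1 K192N* replicate 1 lay within the range of WT. The log2 fold change was −0.40 in *spn1 141-305* (standard error 0.12, adjusted p = 0.0212 from limma) and −0.24 in *spn1 K192N* (adjusted p = 0.231 from limma). The *spn1 K192N* value was −0.43 without *spn1 K192N* replicate 1 (adjusted p = 0.000162 from limma) and −0.12 without WT replicate 1 (adjusted p = 0.758 from limma).

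*CHO1*, *CHO2* and *OPI3* encode the enzymes at the start and end of the route to phosphatidylcholine: Cho1 makes phosphatidylserine, and the methyltransferases Cho2 and Opi3 turn phosphatidylethanolamine into phosphatidylcholine. All of these genes were called lower in *spn1 141-305*, and *OPI3* also in *spn1 K192N*. The *spn1 141-305* call was lost in 7 of the 15 alternatives for *CHO1*, in 8 for *OPI3* and in 1 for *CHO2*.

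*CHO1* (YER026C, chromosome V from 207644 to 208474) had rlog values of 11.43, 11.41 and 11.57 in *spn1 141-305*, 11.71, 11.26 and 11.52 in *spn1 K192N*, and 11.98, 11.72 and 11.59 in WT. The highest *spn1 141-305* library and the lowest WT library, both replicate 3, were 11.573 and 11.588, so the groups were barely apart. The log2 fold change was −0.29 in *spn1 141-305* (standard error 0.099, adjusted p = 0.0368 from limma) and −0.27 in *spn1 K192N* (adjusted p = 0.103 from limma), where replicate 1 overlapped WT. Without WT replicate 1 the log2 fold changes of *CHO1* were −0.18 in *spn1 141-305* and −0.16 in *spn1 K192N* (adjusted p = 0.298 and 0.555 from limma), and without *spn1 K192N* replicate 1 the *spn1 K192N* value was −0.37 (adjusted p = 0.000636 from limma). *CHO2* (YGR157W, chromosome VII from 802440 to 805049) had rlog values of 11.68, 11.65 and 11.68 in *spn1 141-305*, 12.06, 11.66 and 11.62 in *spn1 K192N*, and 12.22, 12.08 and 11.85 in WT. The *spn1 141-305* libraries lay close together and below WT, with a log2 fold change of −0.38 (standard error 0.098, adjusted p = 0.00994 from limma). In *spn1 K192N* it was −0.27 (adjusted p = 0.0994 from limma), and again replicate 1 lay among the WT libraries.

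*OPI3* (YJR073C, chromosome X from 572315 to 572935) was the member with the largest fall in *spn1 K192N*. Its rlog values were 10.46, 10.51 and 10.53 in *spn1 141-305*, 10.59, 10.24 and 10.17 in *spn1 K192N*, and 10.92, 10.72 and 10.62 in WT. Both mutants lay below WT in every library. The log2 fold change was −0.42 in *spn1 K192N* (standard error 0.089, adjusted p = 0.00496 from limma) and −0.25 in *spn1 141-305* (adjusted p = 0.0474 from limma), and only 0.840% of tested genes had a lower log2 fold change in *spn1 K192N*. The *spn1 141-305* call was lost without any 1 of that mutant's replicates 1, 2 and 3 (adjusted p = 0.145, 0.0934 and 0.0777 from limma). The *spn1 K192N* call was lost in 2 of the 15 alternatives (adjusted p at most 0.114 from limma). They were the fit without WT replicate 1 and the fit with a variance prior held constant over levels. The difference between the values of *CHO2* and *OPI3* within a library ran from 1.14 to 1.23 in *spn1 141-305*, from 1.42 to 1.47 in *spn1 K192N* and from 1.24 to 1.36 in WT on the log2 scale. The libraries of the 3 genotypes did not overlap in it, but the highest *spn1 141-305* value, 1.226, and the lowest WT value, 1.235, were barely apart. How often other pairs of genes separate in this way was not counted. This pair of genes was chosen after its values were seen, and no test was made. A shift between libraries cancels in such a difference only where it is equal for both genes, which was not tested.

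None of the 3 regulators was called in either mutant. Most tested genes were not called either: 19.3% were called in *spn1 141-305* and 5.21% in *spn1 K192N*. The repressor *OPI1* (YHL020C, chromosome VIII from 66242 to 67456) had rlog values of 9.79, 9.84 and 9.89 in *spn1 141-305*, 9.98, 9.74 and 9.62 in *spn1 K192N*, and 10.00, 9.90 and 9.87 in WT. Both mutants overlapped WT, with log2 fold changes of −0.08 in *spn1 141-305* (95% confidence interval −0.24 to 0.073) and −0.15 in *spn1 K192N* (−0.31 to 0.010), and adjusted p of 0.439 and 0.242 from limma in the same order. The activator *INO2* (YDR123C, chromosome IV from 698554 to 699468) had rlog values of 7.91, 7.88 and 7.88 in *spn1 141-305*, 7.99, 7.79 and 7.83 in *spn1 K192N*, and 8.01, 7.98 and 7.96 in WT. Its *spn1 141-305* libraries lay below those of WT without overlap, but the log2 fold change of −0.09 (interval −0.21 to 0.021) was that of the median gene and was not called (adjusted p = 0.231 from limma). In *spn1 K192N* it was −0.11 (adjusted p = 0.232 from limma).

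*INO4* (YOL108C, chromosome XV from 111431 to 111886), the partner of Ino2, was the 1 member whose fitted log2 fold change lay above 0. Its rlog values were 6.73, 6.67 and 6.74 in *spn1 141-305*, 6.75, 6.68 and 6.82 in *spn1 K192N*, and 6.65, 6.69 and 6.63 in WT, and both mutants overlapped WT. The log2 fold change was 0.05 in *spn1 141-305* (interval −0.037 to 0.14, adjusted p = 0.393 from limma) and 0.09 in *spn1 K192N* (interval 0.0015 to 0.18, adjusted p = 0.204 from limma). It stayed above 0 in each alternative tried, and 96.1% and 97.9% of tested genes had a lower log2 fold change. Within libraries, *INO1* minus *INO4* was 1.01 ± 0.082 in *spn1 141-305*, 1.11 ± 0.024 in *spn1 K192N* and 1.43 ± 0.13 in WT, and *INO1* minus *INO2* was −0.17 ± 0.072, −0.0071 ± 0.087 and 0.10 ± 0.096 in the same order (log2 scale, SD, n = 3). These pairs, too, were chosen after the values were seen and were not tested, and a shift between libraries need not cancel in them.

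**Figure D2:**
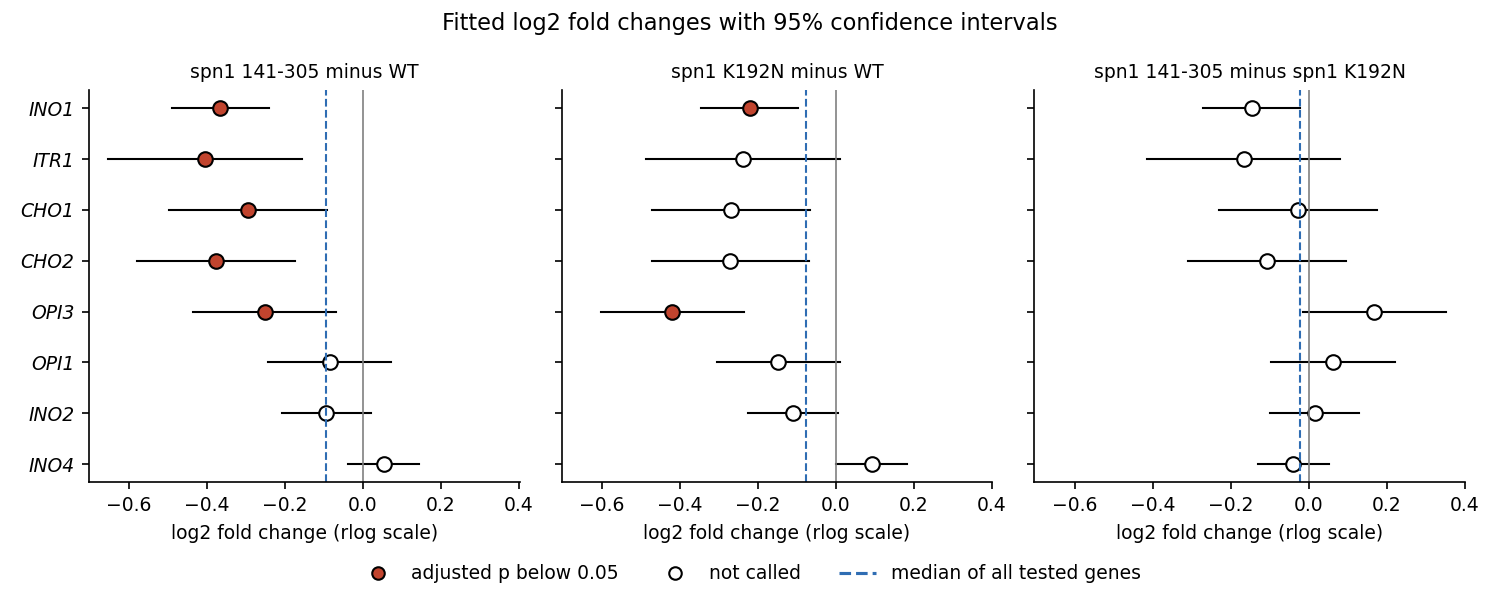
Fitted log2 fold changes (x axis, rlog scale) of the 8 genes (y axis) in the 3 comparisons, with 95% confidence intervals. Filled points passed an adjusted p of 0.05, and the dashed line is the median of all tested genes. All 5 enzyme and transporter genes are filled in *spn1 141-305* against WT, *INO1* and *OPI3* in *spn1 K192N* against WT, and none between the mutants.

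Of the members, 5 of 8 were called lower in *spn1 141-305*, where 18.8% of all tested genes were, and 2 of 8 in *spn1 K192N*, where 4.8% were. The 5 called in *spn1 141-305* are the transporter and enzyme genes, and the 3 not called are the regulators. The median log2 fold change of the 8 was −0.27 in *spn1 141-305*, against −0.09 over all tested genes, and −0.23 in *spn1 K192N*, against −0.08. In *spn1 141-305* the libraries of 6 of the 8 lay wholly below WT, as did those of 45% of all tested genes. In *spn1 K192N* this held for 2 of the 8 and for 18.8% of all tested genes. None of the 8 lay wholly above WT, as 1.6% of tested genes did in *spn1 141-305* and 1.44% in *spn1 K192N*. No member was called higher in either mutant by limma; at an unadjusted p under 0.05 the number was 0 in *spn1 141-305* and 1, *INO4*, in *spn1 K192N*.

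Single libraries moved these counts. Without WT replicate 1, only *INO1* remained called in *spn1 141-305* (278 genes, 4.67% of those tested, were then lower) and no member was called in *spn1 K192N* (0.84% lower). Without *spn1 K192N* replicate 1, 7 of the 8 members were called lower in *spn1 K192N*, all but *INO4*, but so were 34.1% of all tested genes. The count in *spn1 141-305* was 2 without its replicate 1, without its replicate 2 or without WT replicate 2, where 7.89%, 10.7% and 9.22% of all tested genes were called lower. Centred on the median gene, where 8.3% of tested genes were called lower in *spn1 141-305* and 3.28% in *spn1 K192N*, *INO1* at −0.26 and *CHO2* at −0.28 were still called in *spn1 141-305*, and *OPI3* was the 1 member still called in *spn1 K192N*.

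**Figure D3:**
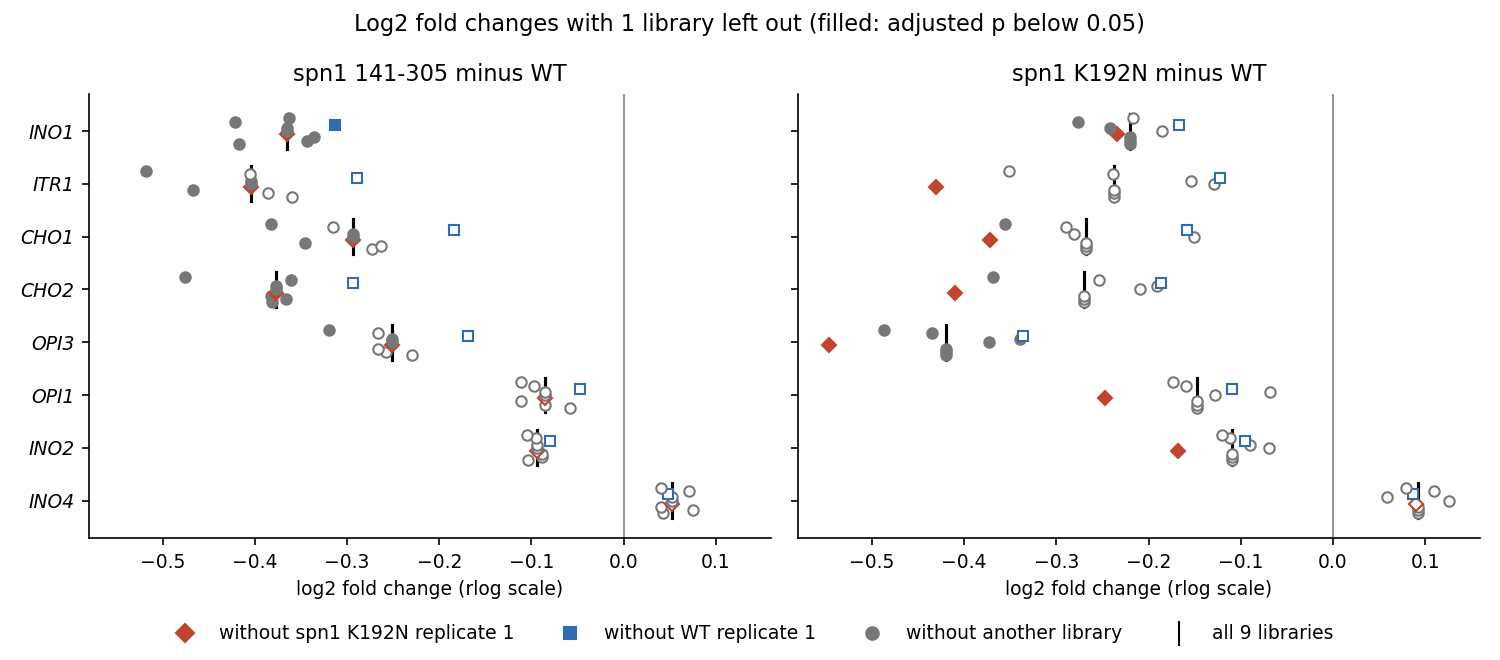
Fitted log2 fold changes against WT (x axis, rlog scale) of the 8 genes (y axis) with each of the 9 libraries left out in turn. Filled symbols passed an adjusted p of 0.05, and black ticks mark the fit of all libraries. *INO1* in *spn1 141-305* is filled throughout, while in *spn1 K192N* 7 genes are filled without its replicate 1 and none without WT replicate 1.

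The truncated and the substituted Spn1 were compared directly. No member was called between *spn1 141-305* and *spn1 K192N* by limma, where 1.9% of all tested genes were, 1.28% lower and 0.621% higher, and at an unadjusted p under 0.05 there was 1, *INO1*. *INO1* had a log2 fold change of −0.15 in *spn1 141-305* against *spn1 K192N* (interval −0.27 to −0.021, adjusted p = 0.279 from limma). The largest value above 0 was that of *OPI3*, at 0.17 (interval −0.015 to 0.35, adjusted p = 0.466 from limma), which became 0.30 without *spn1 K192N* replicate 1 (adjusted p = 0.00923 from limma). The other members lay between −0.17 for *ITR1* and 0.06 for *OPI1*, and the widest of the 8 intervals, that of *ITR1*, ran from −0.41 to 0.082. The libraries of the mutants overlapped for all 8 members, while 12% of tested genes lay wholly lower and 4.55% wholly higher in *spn1 141-305*.

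Another 46 genes of the pathway were followed in 7 groups by role. In *spn1 141-305* 15 of the 46 were called lower and 0 higher by limma, 32.6% against 18.8% of all tested genes called lower, with a median log2 fold change of −0.18. At an unadjusted p under 0.05, 27 were lower and 0 higher. In *spn1 K192N* 3 of the 46 were called lower and 0 higher by limma, 6.52% against 4.8%, with a median of −0.12, and 13 were lower and 1 higher at an unadjusted p under 0.05. With the libraries centred on the median gene, 5 were called lower and 1 higher in *spn1 141-305*, and 2 lower and 1 higher in *spn1 K192N*, the higher gene being *URA8* in both.

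The fatty acid genes, which the same inositol-responsive element controls in part, held the 3 largest falls of the 46 in *spn1 141-305*. There 4 of 5 were called lower, against 18.8% of all tested genes. They were *ACC1*, the acetyl-CoA carboxylase, at −0.70 (standard error 0.12, adjusted p = 0.000471 from limma), the fatty acid synthase subunits *FAS1* at −0.59 and *FAS2* at −0.51, and the acyl-CoA synthetase *FAA4* at −0.31. None of the 5 was called in *spn1 K192N*, where *FAS1* lay at −0.22 and *ACC1* at −0.17. Replicate 1 of *spn1 K192N* stood highest of that mutant's libraries for these genes. Without it *FAS1* lay at −0.40, *FAS2* at −0.40 and *ACC1* at −0.39 against WT (adjusted p = 0.000206, 0.000208 and 0.000344 from limma). Of the 5, 4 were then called lower, as were 34.1% of all tested genes. The rlog values of *ACC1* were 14.11, 14.12 and 14.11 in *spn1 141-305*, 15.08, 14.45 and 14.41 in *spn1 K192N*, and 14.89, 14.96 and 14.60 in WT. The *spn1 141-305* libraries lay close together and below all the rest. *ACC1*, *FAS1* and *FAS2* are also the longest of the 46 coding sequences, at 6702, 6156 and 5664 bp, and the part of length, or of level, in their fall was not tested.

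In the choline and ethanolamine group, 2 of 7 were called lower in *spn1 141-305*, where 18.8% of all tested genes were. They were the choline transporter *HNM1* at −0.34 (adjusted p = 0.0301 from limma) and *CPT1*, which joins CDP-choline to diacylglycerol, at −0.25 (adjusted p = 0.0430 from limma). The value of *CPT1* was −0.15 without WT replicate 1 (adjusted p = 0.317 from limma). *HNM1* lay at −0.29 in *spn1 K192N* without being called (adjusted p = 0.118 from limma). Of the genes for phosphatidic acid, the precursor shared by phospholipids and storage fat, 3 of 11 were called lower in *spn1 141-305*, against the same 18.8%. They were the acyltransferases *SLC1* at −0.30 and *SCT1* at −0.28, and *PAH1*, the phosphatidate phosphatase, at −0.24. *PAH1* was also the 1 of the 11 called in *spn1 K192N*, at −0.27 (adjusted p = 0.0318 from limma), where 4.8% of all tested genes were called lower.

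Of the CDP-diacylglycerol genes 1 of 8 was called lower in *spn1 141-305*, the phosphatidylserine decarboxylase *PSD2* at −0.22, and of the other inositol genes 1 of 4, the glycerophosphoinositol transporter *GIT1* at −0.17. Of all tested genes, 18.8% were called lower there. Neither group had a call in *spn1 K192N*, where 4.8% of all tested genes were called lower. In the group that supplies CTP and removes S-adenosylhomocysteine, 0 of 3 were called in either mutant by limma. At an unadjusted p under 0.05, 2 were below WT in both mutants: the CTP synthase *URA7*, at −0.21 in *spn1 141-305* and −0.19 in *spn1 K192N*, and *SAH1*, the S-adenosylhomocysteine hydrolase, at −0.26 and −0.24 in the same order. The other CTP synthase, *URA8*, lay at 0.14 in *spn1 141-305* (adjusted p = 0.153 from limma) and at 0.21 in *spn1 K192N* (adjusted p = 0.0777 from limma). With the libraries centred on the median gene *URA8* was called higher in both, at 0.24 in *spn1 141-305* (adjusted p = 0.010 from limma) and 0.28 in *spn1 K192N* (adjusted p = 0.00488 from limma), and it was also called higher in *spn1 K192N* without that mutant's replicate 1, at 0.18 (adjusted p = 0.0296 from limma). These 3 genes were singled out after their values were seen. *CPT1*, *SCT1* and *URA8* have paralogs, *EPT1*, *GPT2* and *URA7*, with which they can share reads, so their values are less certain.

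Of the regulators and cofactors of *INO1* other than *INO2*, *INO4* and *OPI1*, 4 of 8 were called lower in *spn1 141-305*, where 18.8% of all tested genes were. They were *IRE1* at −0.30 and *HAC1* at −0.29, the sensor and the transcription factor of the unfolded protein response, *SNF2* at −0.24, the motor of the SWI/SNF remodeler, and *SIN3* at −0.22, a corepressor subunit that Opi1 can recruit. *IRE1* at −0.29 (adjusted p = 0.0189 from limma) and *HAC1* at −0.30 (adjusted p = 0.0486 from limma) were called in *spn1 K192N* as well. That is 2 of the 8, where 4.8% of all tested genes were called lower. The rlog values of *IRE1* were 10.58, 10.68 and 10.52 in *spn1 141-305*, 10.71, 10.52 and 10.57 in *spn1 K192N*, and 10.95, 10.91 and 10.82 in WT, so that both mutants lay wholly below WT. Of all tested genes, 45% lay wholly below WT in *spn1 141-305* and 18.8% in *spn1 K192N*. *SCS2*, which holds Opi1 at the endoplasmic reticulum, lay at 0.01 and −0.02 in *spn1 141-305* and *spn1 K192N*. Like *UME6*, *RPD3* and *INO80* of this group, it was called in neither mutant.

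**Figure D4:**
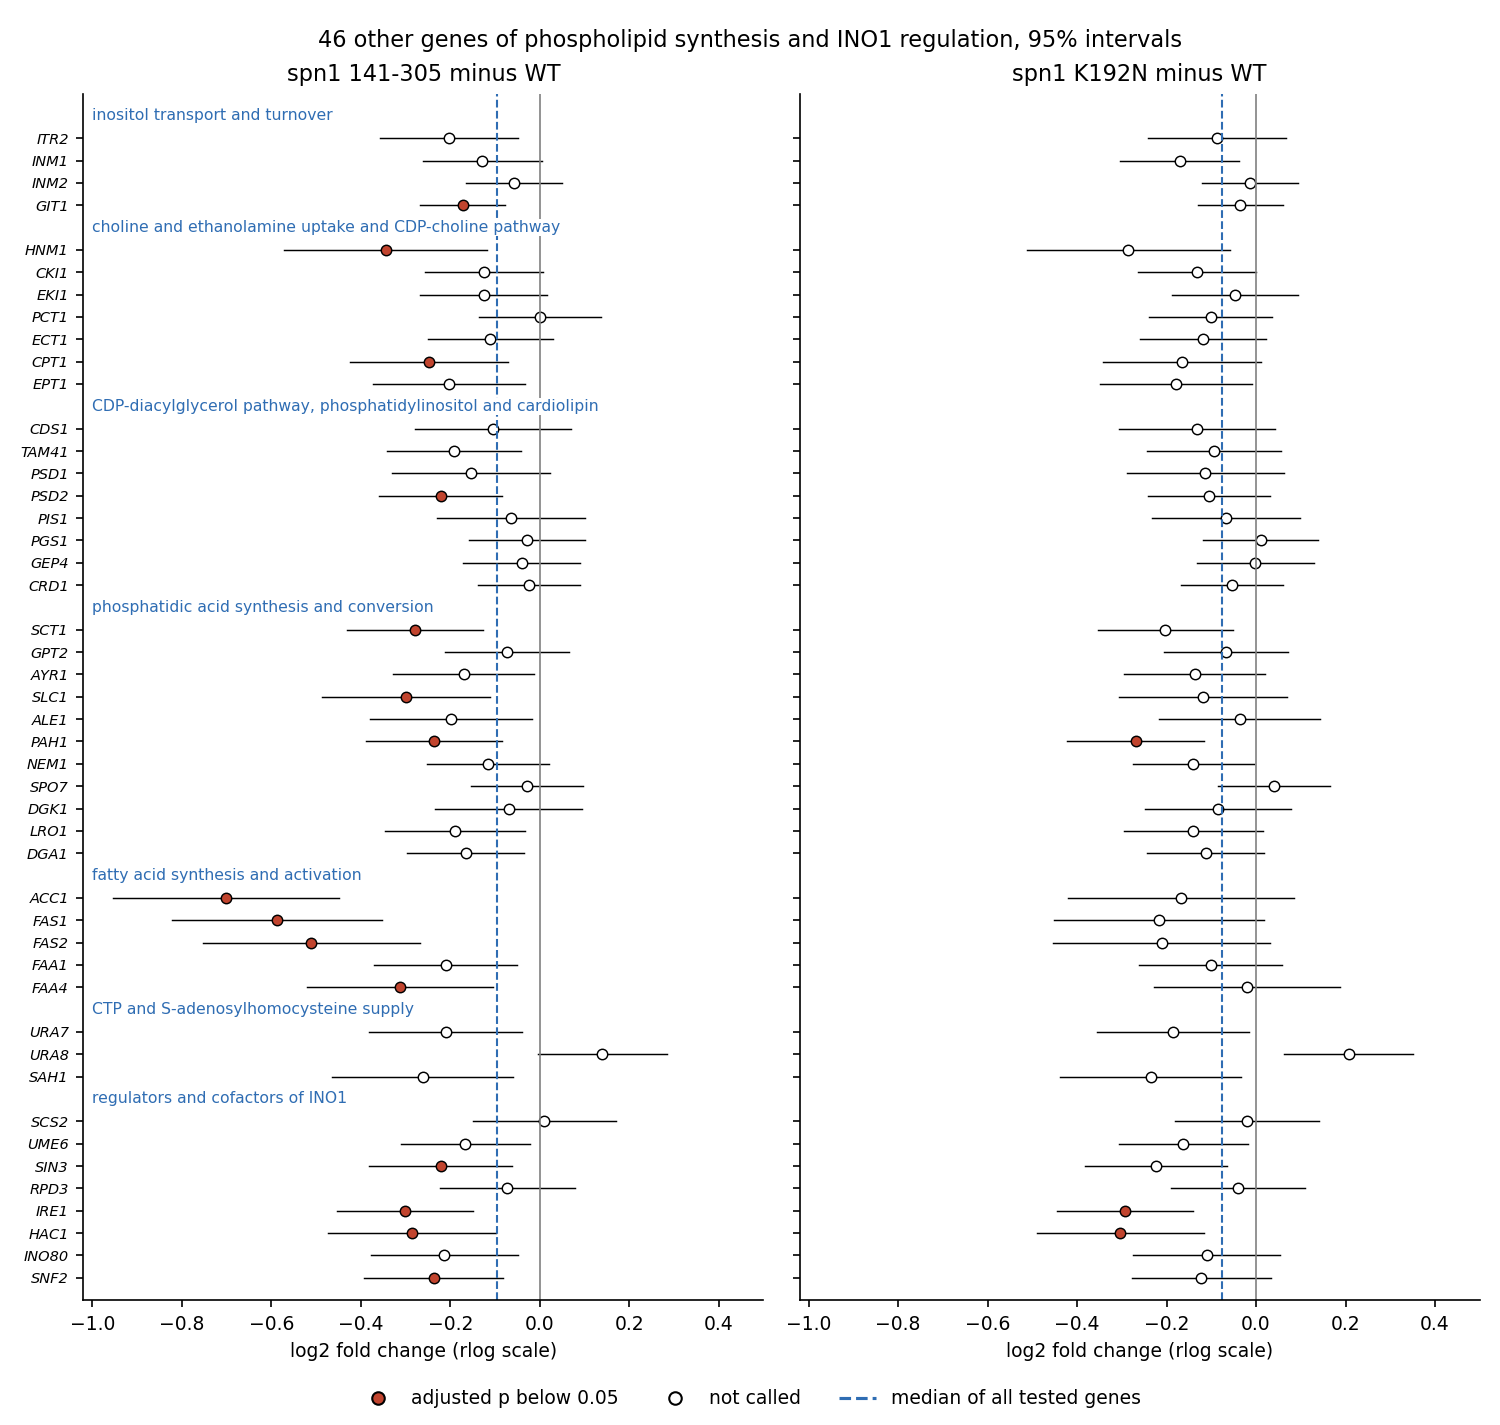
Fitted log2 fold changes against WT (x axis, rlog scale) of 46 genes in 7 groups by role (y axis), with 95% confidence intervals. Filled points passed an adjusted p of 0.05, and the dashed line is the median of all tested genes. In *spn1 141-305* 15 genes are filled, with *ACC1* farthest from 0 at −0.70, and in *spn1 K192N* 3 are filled.

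Without WT replicate 1, 3 of the 46 were called in *spn1 141-305* and 0 in *spn1 K192N* (7 at an unadjusted p under 0.05, limma), with 4.97% and 1.04% of all tested genes called. Without *spn1 K192N* replicate 1 the counts were 27 in *spn1 141-305* and 26 in *spn1 K192N*, with 35.2% and 34.9% of all tested genes called. The counts in *spn1 141-305* without its replicates 1, 2 and 3 were 5, 9 and 8, and without WT replicate 2 the count was 5, where 8.11%, 11%, 9.71% and 9.37% of all tested genes were called. In *spn1 K192N* 0 of the 46 were called without its replicate 2, without its replicate 3 or without WT replicate 2 (5, 7 and 7 at an unadjusted p under 0.05, limma), with 2.67%, 2.33% and 2.65% of all tested genes called.

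The genes whose levels followed *INO1* most closely over the 9 libraries were not members. *SKG3* had a Pearson correlation of 0.983 with *INO1*, *PSR1* 0.978, *URB2* 0.970, *TEL1* 0.958 and *DEG1* 0.951. Libraries share a shift over most genes, and the median of this correlation over 5953 genes was 0.508. Among the members it was 0.734 for *CHO2*, 0.714 for *CHO1*, 0.656 for *INO2*, 0.647 for *ITR1*, 0.556 for *OPI3*, 0.342 for *OPI1* and −0.352 for *INO4*. *CHO2*, the closest member, ranked 1167 of the 5953 genes. In *spn1 141-305* the log2 fold changes of the 5 closest genes ran from −0.37 for *DEG1* to −0.19 for *PSR1*, and in *spn1 K192N* from −0.19 for *DEG1* to −0.10 for *PSR1*, and none of the 5 was called there.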

How the data were processed

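Poly-A RNA of 9 libraries, 3 cultures for each genotype, was used, and libraries were assigned to genotypes by their labels. The authors quantified transcripts with Salmon 1.9 on *S. cerevisiae* and *S. pombe* cDNA, scaled libraries with DESeq2 1.30.1 in R 4.0.3 on the *S. pombe* genes, and deposited rlog values on a log2 scale. They also deposited a mean scaled count per gene over all libraries, a signal without replicates that served only for levels per kb. The fold changes and p-values in the authors' comparison tables were not used. Counts per library were not used here, so the depth is unknown and no counting error is given. The chromatin samples were not analysed here.

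The rlog values were fitted with limma 3.58.1 in R 4.3.3 with 1 mean for each genotype. Variances were moderated along the mean level, p-values were two-sided, and the Benjamini-Hochberg adjustment ran over the 5954 genes that averaged log2(10) or more on the rlog scale. The fit was first tested on simulated data. Names, positions and promoter windows came from RefSeq R64, the build the labels name, and 5896 of 6577 identifiers matched. Python 3.11.15 served for the rest. The members, the lists and the tests were chosen with earlier results of these data known. Named are all members, from each group of pathway genes up to 4 called genes with the largest change per comparison, the 5 genes most like *INO1*, *SPN1* and the strain markers. Outside this rule, *SCS2*, *UME6*, *RPD3*, *INO80*, *URA7*, *SAH1*, *URA8* and the paralogs *ITR2*, *EPT1* and *GPT2* were named too. The alternatives tried changed the filter, the centring of libraries, the variance prior, the genotypes fitted together, a block for replicate number, the threshold and each library left out.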

Additional observations from a re-analysis of the deposited data

Results flagged for a closer look

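Among the members and the 46 pathway genes, *ACC1* was the 1 gene called between the mutants, where 1.9% of all tested genes were called. *ACC1* was lower in *spn1 141-305* than in *spn1 K192N*, with a log2 fold change of -0.53 and an adjusted p of 0.0167 in limma. Every *spn1 141-305* library lay below every *spn1 K192N* library, as for 12% of all tested genes. The difference was -0.32 without *spn1 K192N* replicate 1 (adjusted p = 0.0153 from limma), whose value of 15.08 stood above the other *spn1 K192N* libraries at 14.45 and 14.41. The call was lost without WT replicate 1 and with a variance prior held constant over levels.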

How the results depend on the processing

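Of the members against WT, *INO1* in *spn1 141-305* kept its direction and its call under all 15 alternatives, and *CHO2* in *spn1 141-305* under 14. The call in *spn1 141-305* was lost in 6 alternatives for *ITR1*, 7 for *CHO1* and 8 for *OPI3*. The call of *OPI3* in *spn1 K192N* was lost in 2. These 15 alternatives leave out the threshold of 0.01. At that threshold *ITR1*, *CHO1* and *OPI3* in *spn1 141-305* and *INO1* in *spn1 K192N* were not called. *INO1* in *spn1 K192N* was no longer called without a filter (-0.22, adjusted p = 0.0518), centred (-0.14, adjusted p = 0.185) or with a prior variance without a trend (-0.22, adjusted p = 0.0837, all from limma), and ran from -0.28 to -0.17 with 1 library left out. Members called in *spn1 141-305* were 3 without a filter, 2 centred, 2 without a trend and 2 at an adjusted p below 0.01, and from 1 to 5 with 1 library left out. All genes called were 1048, 683 (11.5%), 1092 (18.3%) and 413 in the same order, and from 296 to 2094. Members called in *spn1 K192N* were 1, 1, 0 (4 at an unadjusted p under 0.05) and 1, and from 0 to 7. All genes called there were 229, 272 (4.57%), 173 (2.91%) and 109, and from 62 to 2075. Between the mutants the members called were from 0 to 1. Pathway genes called in *spn1 141-305* were 6 centred (5 lower, 1 higher), 27 in a fit of the 2 genotypes alone and 4 at 0.01, and from 3 to 27 with 1 library left out. In *spn1 K192N* they were 1 without a filter, 1 without a trend and 0 at 0.01 (14 unadjusted), and from 0 to 26. Between the mutants they were 3 centred, 0 without a trend and 0 at 0.01 (5 unadjusted in each), and from 0 to 3. Over all genes, *spn1 141-305* had 2136 calls (35.9%) with the 2 genotypes alone. The mutants differed in 253 genes centred (4.25%), 19 without a trend (0.319%), 54 at 0.01 and from 63 to 188 with 1 library left out. Of the calls, 72.3% were lower when centred and 97.6% without centring in *spn1 141-305*, and 71.7% and 92.3% in *spn1 K192N*. Between the mutants 142 were lower and 111 higher when centred (56.1% lower), against 76 lower and 37 higher without centring (67.3%). Uncalled values changed sign when centred for *INO2* (0.0078) and *OPI1* (0.016) in *spn1 141-305*, and between the mutants with 1 library left out for *CHO1* (-0.14 to 0.078), *CHO2* (-0.19 to 0.033), *INO2* (-0.025 to 0.075), *ITR1* (-0.28 to 0.027) and *OPI1* (-0.017 to 0.16). With the replicate number as a block, 4 members and 501 genes were called in *spn1 K192N*, with *CHO1* (adjusted p = 0.0467) and *CHO2* (adjusted p = 0.0371) added. Same-numbered libraries deviated together in 3 of 9 pairs (r over 0.1, range -0.28 to 0.25 across genes). The deviations were taken from each genotype's own mean, which makes positive and negative r offset each other. The check therefore cannot decide whether the numbers pair the cultures. The cause of these changes was not tested.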
